A study of Mus musculus with 6 samples.

Results

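The 9 genes examined carry iron into the cell, store it, release it or sense it: Tfrc, Slc11a2, Steap3, Fth1, Ftl1, Ncoa4, Slc40a1, Aco1 and Ireb2. They were taken by NCBI gene identifier, and all 9 were found among the 17254 genes with a count in at least 1 library. RNA-seq was available for 6 libraries of mouse neural stem and progenitor cells (NSPCs). Of these, 2 were mock-treated controls, 2 were treated with 5 µM paraquat (PQ) and 2 with 5 mM N-acetylcysteine (NAC), each for 48 h. Only the label of PQ replicate 1 gives the treatment dose, and the other doses are those of the study's RNA-seq methods. PQ cycles with oxygen in the cell and generates superoxide, whereas NAC is a thiol antioxidant, so the groups ask how iron genes stand when the redox state is pushed either way.

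All groups came from a neonate-derived, immortalized Ink/Arf-null NSPC culture grown in N2 medium with EGF and bFGF. The labels of the replicate 1 libraries of control and PQ give this genotype as Ink/Ark knockout and the strain as C57BL/6, and the other 4 labels give neither. The methods describe a mixed population of quiescent and activated stem cells, neuronal precursors and oligodendroglial progenitors. The study's reporting summary says that the RNA sequencing was repeated and plans sample sizes in biological replicates, but not whether these libraries came from separate cultures, so p-values measure only the spread between these libraries, which may be technical. Totals ranged from 9680436 to 10698241 expected counts, a read estimate per gene that need not be whole. Per the labels, replicate 1 of control and of PQ was made with a NucleoSpin kit and an Illumina protocol, and the other 4 libraries with TRIZOL on a BGISEQ instrument. Control and PQ thus have 1 library in each protocol, whereas both NAC libraries share the TRIZOL protocol. NAC against control and PQ against NAC are therefore unbalanced by protocol, and a fit with the labelled protocol as a covariate and values within TRIZOL alone bear on them.

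Cdkn2a, the gene deleted in the culture, had 137 and 162 counts in control, 120 and 130 in PQ and 130 and 131 in NAC. It was thus counted in every library, and since the tables hold no values per exon, these counts do not check the genotype. Markers of neural progenitors were abundant, with summed FPKM (fragments scaled to gene length and library size) over 7 genes of 3267 and 3337 in control, 3625 and 3681 in PQ and 2525 and 2443 in NAC. Vim was the most abundant of them, while Prom1 had at most 4 counts in any library. Olig1 led the 5 markers of oligodendrocyte progenitors, whose sums were 651 and 752 in control, 767 and 665 in PQ and 814 and 924 in NAC, with Sox10 at or under 3 counts. The neuronal precursor gene Dcx stayed between 0.01 and 0.08 FPKM. The tables list no gene at 0, so a gene without a value in a library was taken as 0 there, which was the case for the neuronal marker Rbfox3 in all 6. The 7 erythroid genes, which mark cells with heavy iron traffic, were at or under 3 counts in every library by this reading.

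Transferrin-bound iron enters cells through the transferrin receptor. In the endosome it is freed and reduced, and it then crosses into the cytosol, where what is not used is kept inside ferritin. Cells balance these steps largely after transcription: when iron is scarce, the iron regulatory proteins bind hairpins called iron-responsive elements (IREs), which blocks translation when the hairpin lies in the 5′ UTR and protects the mRNA from decay when it lies in the 3′ UTR.

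The IRE hairpins are printed here because Fth1, Ftl1 and Tfrc, which lead the results below, carry them. The search took the letters C, 5 bases, CAGTGN with a last base other than G, and 5 bases that pair with the earlier 5 by Watson-Crick or G-T pairs, on the sense strand of protein-coding transcripts of GENCODE vM1. Of 22611 genes searched, 204 (0.902%) held a match anywhere, 22 (0.0973%) held one in the 5′ UTR and 92 (0.407%) held one in the 3′ UTR. Fth1, Ftl1 and Slc40a1 each had 1 match in the first exon, in the 5′ UTR, and Tfrc had 4 in its last exon, in the 3′ UTR. Below, 6 bases flank each match, and capitals mark the bulged C and the 6-base loop.
Fth1: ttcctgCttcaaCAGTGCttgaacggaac
Ftl1: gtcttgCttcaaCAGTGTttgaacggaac
Slc40a1: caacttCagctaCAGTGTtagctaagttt
Tfrc, match 1: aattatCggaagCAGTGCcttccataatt
Tfrc, match 2: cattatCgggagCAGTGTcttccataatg
Tfrc, match 3: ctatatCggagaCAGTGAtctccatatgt
Tfrc, match 4: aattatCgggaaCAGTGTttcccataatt
On mm9, the Fth1 element lies at chr19:10057222-10057250 on the plus strand and the Ftl1 element at chr7:52715149-52715177 on the minus strand. That of Slc40a1 lies at chr1:45982310-45982338 on the minus strand. The Tfrc matches lie on the plus strand at chr16:32631305-32631333, chr16:32631684-32631712, chr16:32631749-32631777 and chr16:32631796-32631824. Slc11a2, Steap3, Ncoa4, Aco1 and Ireb2 held no match, which says only that this pattern was not in their annotated transcripts.

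**Figure D1:**
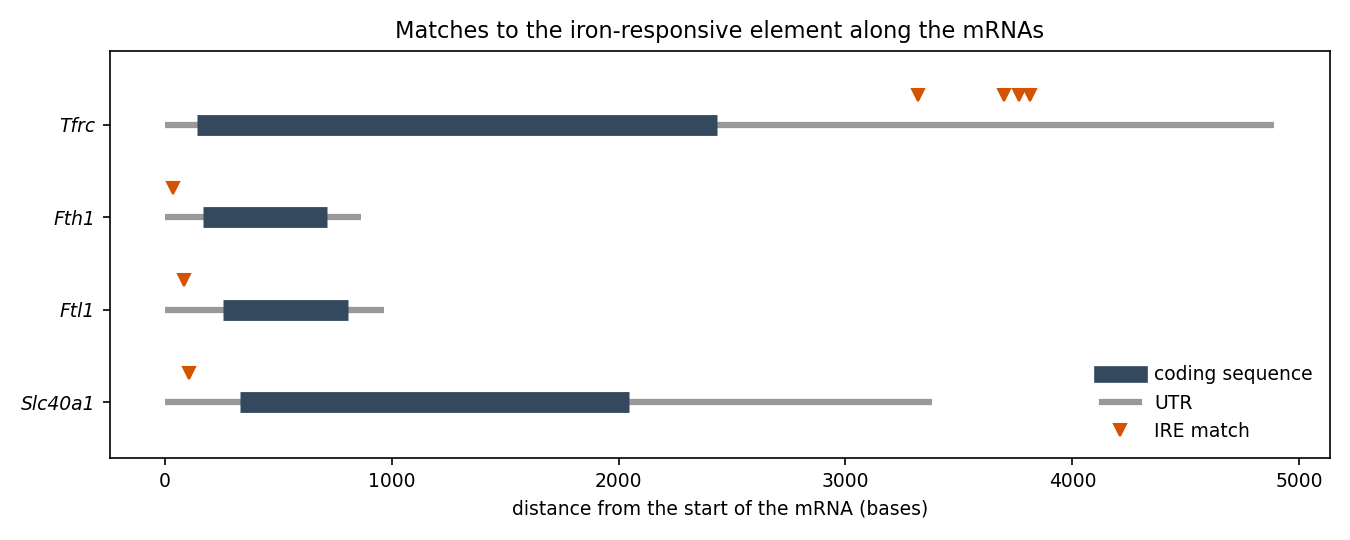
Positions of IRE matches along annotated mRNAs, in bases from the mRNA start; thick bars are coding sequence, thin bars UTRs and triangles matches. The 4 matches of Tfrc lie beyond its coding sequence, whereas those of Fth1, Ftl1 and Slc40a1 lie before it.

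The members spanned a wide range of levels, given as the FPKM values deposited for each library, which allow a comparison between genes per length. In control, Fth1 was the third most abundant of all genes at 2718 ± 19.3 FPKM (SD, n = 2), and Ftl1 followed at 559.9 ± 83.3. Tfrc (86.1 ± 9.74), Ncoa4 (50.0 ± 0.502), Ireb2 (26.0 ± 1.17) and Aco1 (19.9 ± 1.68) came next. Steap3 (11.7 ± 0.785) and Slc11a2 (8.53 ± 1.38) were lower, and Slc40a1 was close to 0. In control, both libraries of each gene lay above both libraries of the next gene in this order. Steap3 changed its place: in PQ its libraries overlapped those of Aco1, and in NAC it fell below Slc11a2. The 8 genes other than Slc40a1 exceeded 1 FPKM in every library, so the filter used for testing, a mean of at least 1 FPKM, did not select them by group.

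**Figure D2:**
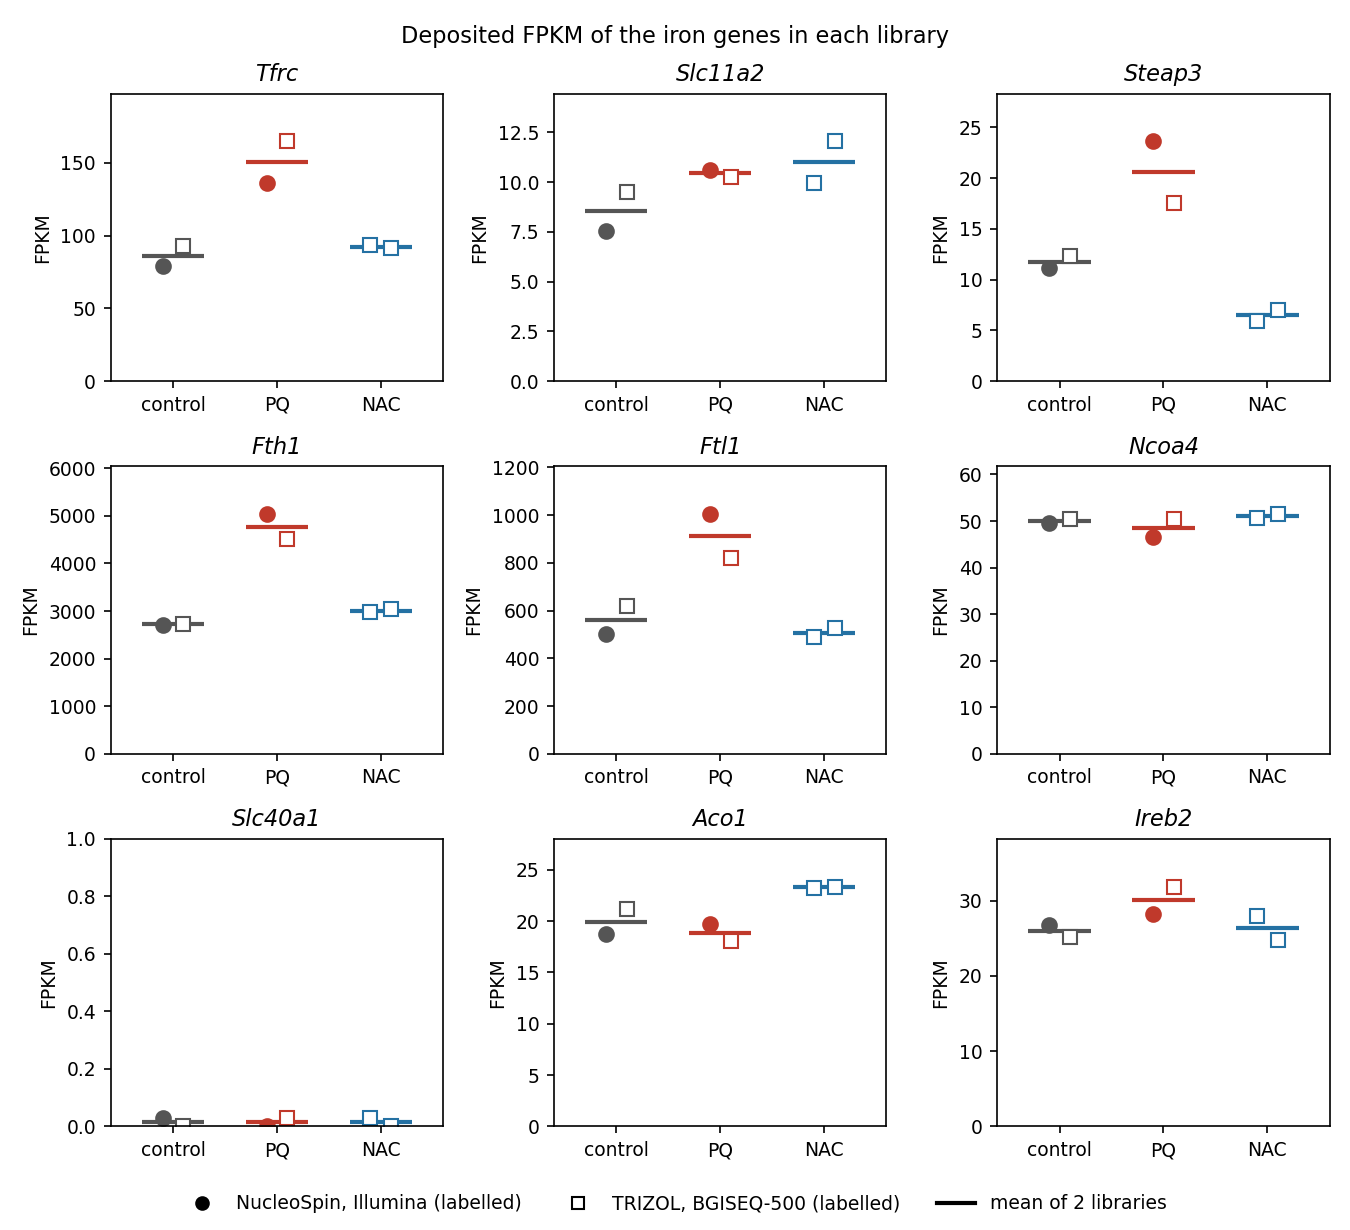
FPKM of the 9 iron genes in each library by group, on linear axes from 0 with a scale of its own per gene; filled circles are NucleoSpin and Illumina libraries by label, open squares TRIZOL and BGISEQ-500 libraries, and lines the means of 2. Tfrc, Steap3, Fth1, Ftl1 and, narrowly, Ireb2 are higher in both PQ libraries than in the other 4. The share of all genes with this order was not computed.

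In PQ-treated NSPCs, the mRNAs of the iron receptor, the endosomal reductase and both ferritin chains rose over control together. Their proteins were not measured here. Of the 8 members tested, 4 passed, and all 4 were higher (edgeR's quasi-likelihood test, Benjamini-Hochberg adjusted p under 0.05 over all 11717 genes tested). Over all genes tested, 19.2% passed, 9.76% higher and 9.45% lower. The median log2 fold change of the 8 members was 0.47, beside 0.00 for all genes. The members were chosen with results of these libraries known, so these counts describe them and test nothing about them as a group. Against NAC, PQ gave higher values for the same 4 genes and a lower value for Aco1, where 31.6% of all genes passed, 16.0% higher and 15.7% lower. For NAC against control, 2 members passed, Steap3 lower and Slc11a2 higher, where 18.7% of all genes passed, 9.01% higher and 9.64% lower. Within TRIZOL alone, where 1 PQ library stands against 2 of NAC, PQ minus NAC in log2 CPM (counts scaled to library size) was 0.87 for Tfrc, 1.46 for Steap3, 0.62 for Fth1, 0.72 for Ftl1 and -0.34 for Aco1, so each of the 5 kept its direction there. With the labelled protocol as a covariate, the log2 fold change for PQ against NAC was 0.85 for Tfrc, 1.60 for Steap3, 0.65 for Fth1 and 0.87 for Ftl1, and that of Steap3 for NAC against control was -0.83, all past the threshold by edgeR. The comparisons share libraries and are not independent of each other.

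**Figure D3:**
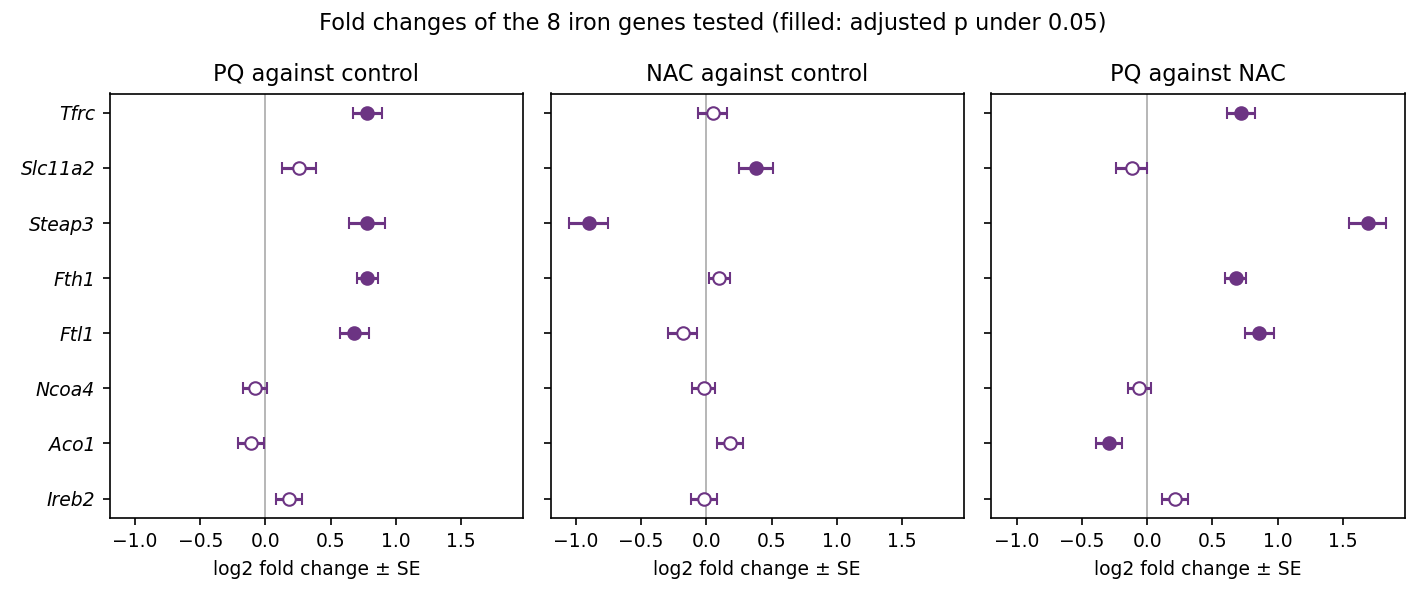
Log2 fold changes with standard errors of the 8 iron genes tested, for 3 comparisons over 6 libraries; filled points have an adjusted p under 0.05. Tfrc, Steap3, Fth1 and Ftl1 lie to the right for PQ against control and against NAC, and Steap3 lies at -0.90 for NAC against control.

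Tfrc (NCBI gene 22042), the transferrin receptor, had 79.3 and 93.0 FPKM in control, 136 and 164.7 in PQ and 93.4 and 91.2 in NAC. Both PQ libraries thus lay above the other 4, while the NAC libraries overlapped the control libraries. In PQ it rose 1.72-fold over control (log2 fold change 0.78, standard error (SE) 0.11, edgeR adjusted p = 6.2e-05) and 1.65-fold over NAC (0.72, SE 0.11, edgeR adjusted p = 3.8e-05). Within protocols, the difference of log2 CPM between PQ and control was 0.73 with NucleoSpin and 0.82 with TRIZOL. For NAC against control the log2 fold change was 0.05 (SE 0.11, edgeR adjusted p = 0.78), and with the labelled protocol as a covariate it was -0.07, so no direction can be given.

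Steap3 (NCBI gene 68428), a ferrireductase of the endosome, was the member that differed from control under both treatments, and in opposite directions. Its FPKM was 11.2 and 12.3 in control, 23.6 and 17.5 in PQ and 5.93 and 7.05 in NAC, so that the groups did not overlap. The log2 fold change was 0.78 for PQ against control (SE 0.14, edgeR adjusted p = 0.00053), and in NAC it fell by 0.90 against control (SE 0.15, edgeR adjusted p = 0.00024). PQ was 3.22-fold higher than NAC (log2 fold change 1.69, SE 0.14, edgeR adjusted p = 8.9e-08), the largest difference among the 8 members tested. The rise in PQ differed between protocols, at 1.03 in log2 CPM with NucleoSpin and 0.50 with TRIZOL. Within TRIZOL alone, the NAC libraries averaged -0.96 against the control library.

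Slc11a2 (NCBI gene 18174), also known as DMT1, moves ferrous iron out of the endosome. It had 7.55 and 9.5 FPKM in control, 10.6 and 10.3 in PQ and 9.95 and 12.04 in NAC, with the control libraries lowest. Its log2 fold change was 0.38 for NAC against control (SE 0.13, edgeR adjusted p = 0.045) and 0.26 for PQ against control (edgeR adjusted p = 0.17). The first call was weak: it was lost with the labelled protocol as a covariate (log2 fold change 0.31, edgeR adjusted p = 0.18), with only the 4 libraries compared, with DESeq2 (adjusted p = 0.11), with limma, and without control replicate 1 (log2 fold change 0.24), NAC replicate 2 (0.26) or either PQ library, and 5 of 14 alternatives kept it, with adjusted p from 0.01 to 0.33. Within TRIZOL alone, the NAC libraries averaged 0.24 above the control library in log2 CPM. Without control replicate 2, PQ passed too, at 0.41 (edgeR adjusted p = 0.048). Its expected counts were fractional in all 6 libraries, as estimates are when reads fit more than 1 transcript or gene, and its mean transcript length in the tables ran from 3683 to 3938 bases, longest in the NAC libraries. Whether the mix of Slc11a2 transcripts bears on its FPKM was not tested.

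Fth1 (NCBI gene 14319) encodes the heavy chain of ferritin, which oxidizes iron for storage. Its FPKM was 2704 and 2731 in control, 5038 and 4505 in PQ and 2980.45 and 3036 in NAC. The PQ libraries stood far above the others, and NAC lay slightly above control. The log2 fold change of PQ was 0.78 over control (1.72-fold, SE 0.08, edgeR adjusted p = 5.9e-06) and 0.68 over NAC (SE 0.08, edgeR adjusted p = 6.4e-06), and within protocols PQ exceeded control by 0.85 and 0.72 in log2 CPM. For NAC over control it was 0.10 (SE 0.08, edgeR adjusted p = 0.46), which did not pass although the libraries did not overlap.

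Ftl1 (NCBI gene 14325), the light chain, had 501 and 619 FPKM in control, 1005 and 819.7 in PQ and 489 and 528 in NAC. It followed Fth1 in PQ, whereas in NAC its libraries overlapped those of control. In PQ it rose 1.60-fold over control (log2 fold change 0.68, SE 0.11, edgeR adjusted p = 0.00027) and 1.82-fold over NAC (0.86, SE 0.11, edgeR adjusted p = 7.7e-06). Within protocols the rise over control was unequal, at 0.96 in log2 CPM with NucleoSpin and 0.40 with TRIZOL, where the control libraries themselves differed. NAC against control gave -0.18 (SE 0.11, edgeR adjusted p = 0.26).

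Both ferritin genes had whole-number expected counts in all 6 libraries to the 2 decimals of the tables. The fractional members were Slc11a2 and Aco1. Among listed genes named as ferritin copies, Fthl17d alone had a count, 1 in a control library, and adding it to Fth1 left all 4 ferritin calls in place. Reads from unlisted ferritin pseudogenes cannot be told apart from those of the parent genes. Together, Fth1 and Ftl1 took 0.297% and 0.311% of all counts in control, 0.561% and 0.494% in PQ and 0.321% and 0.330% in NAC. The ratio of Fth1 to Ftl1 FPKM was 5.40 and 4.41 in control, 5.01 and 5.50 in PQ and 6.09 and 5.75 in NAC. The heavy chain thus exceeded the light chain in every library, and the NAC ratios lay above the other 4, a difference given without a test.

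Ncoa4 (NCBI gene 27057), the receptor that brings ferritin to the lysosome for breakdown, stayed between 46.5 and 51.5 FPKM over the 6 libraries. Its log2 fold change was -0.08 for PQ against control (SE 0.09, edgeR adjusted p = 0.61) and -0.02 for NAC against control, where limma on FPKM gave 0.03, so no direction is given. Slc40a1 (NCBI gene 53945), ferroportin, the known exporter of iron, had 1, 0, 0, 1, 1 and 0 counts in the control, PQ and NAC libraries in that order. All 3 groups were at or under a floor of 3 counts per library, or between 0.280 and 0.310 CPM, and no fold was computed. The floor covers counting error only. Its message was thus not detectable at this depth beyond single reads.

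The iron regulatory proteins showed smaller differences. Aco1 (NCBI gene 11428), which serves as an aconitase or binds IREs, had 18.8 and 21.1 FPKM in control, 19.7 and 18.0 in PQ and 23.2 and 23.4 in NAC. In PQ it fell by 0.29 against NAC on the log2 scale (SE 0.10, edgeR adjusted p = 0.033), a call kept in 6 of 14 alternatives and lost without either PQ library or either NAC library (adjusted p from 0.084 to 0.22 by edgeR), with DESeq2 or limma, and with the labelled protocol as a covariate (edgeR adjusted p = 0.12), where the log2 fold change was -0.27. Ireb2 (NCBI gene 64602) had 26.8 and 25.2 FPKM in control, 28.2 and 31.9 in PQ and 28.0 and 24.8 in NAC. Its PQ libraries were the highest, with a log2 fold change over control of 0.18 (SE 0.10, edgeR adjusted p = 0.24) that did not pass. Within protocols this was 0.03 with NucleoSpin and 0.34 with TRIZOL.

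**Figure D4:**
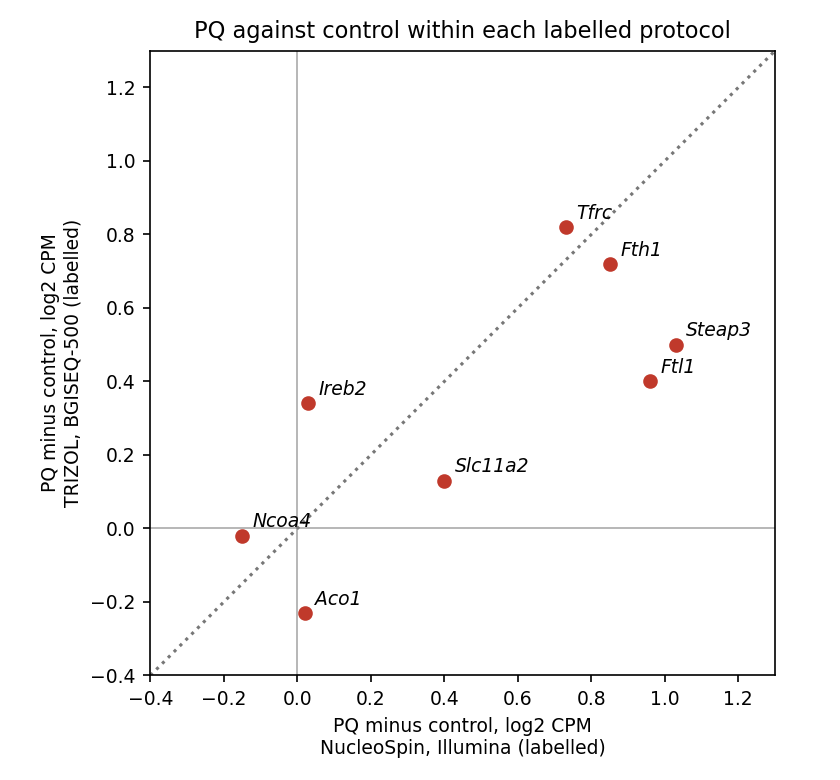
PQ minus control in log2 CPM for the 8 iron genes tested, 1 library against 1 in each labelled protocol; the dotted line marks equal differences. Tfrc, Fth1, Steap3 and Ftl1 are above 0 in both protocols, with Ftl1 at 0.96 and 0.40.

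Genes with profiles closest to those of the members were found by the root mean square (RMS) difference of log2 CPM over the 6 libraries, each profile centred on its own mean. This was done for Tfrc, Steap3, Fth1 and Ftl1, whose group means spanned over 0.5. The nearest to Tfrc were Hsd17b7 (RMS difference 0.0655), Nudt17 (0.0841) and Adamts1 (0.0897). For Steap3 they were Stard10 (0.0793), Cep170b (0.105) and Mt3 (0.114). Fth1 had the closest neighbours, St6gal1 (0.0371), Tacc2 (0.0405) and Vcan (0.0476), and for Ftl1 they were Dgka (0.0552), Aen (0.0600) and Oas1b (0.0637). Near profiles are a description over 6 libraries and say nothing of shared control.

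Of 93 further iron genes in 8 lists, 87 had a count and 78 were tested. In PQ against control 9 were higher and 5 lower, 17.9% of those tested, and in NAC against control 6 were higher and 8 lower, also 17.9%. Both shares were near the share of all genes. Against NAC, PQ was higher for 14 and lower for 8, or 28.2%, below the 31.6% of all genes. The counts by list below stand beside the same shares of all genes. These were 19.2% for PQ against control, 18.7% for NAC against control and 31.6% for PQ against NAC. The count for PQ against control was 6 without PQ replicate 1. That for PQ against NAC was 12 without PQ replicate 1, 13 without PQ replicate 2 or NAC replicate 1 and 14 without NAC replicate 2.

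Among 15 other uptake and reductase genes, 11 were tested, of which 2 were higher and 2 lower in PQ against control, 3 and 1 in NAC against control, and 1 and 2 in PQ against NAC. Lcn2, which binds siderophore-held iron, and Steap4, a plasma membrane ferrireductase, rose under both treatments. Lcn2 had 82.8 and 68.3 FPKM in control, 202.4 and 165.6 in PQ and 151.8 and 162.1 in NAC, with log2 fold changes over control of 1.26 in PQ (edgeR adjusted p = 1.1e-06) and 1.01 in NAC (edgeR adjusted p = 5.4e-06). Steap4 was highest in NAC, at 76.6 and 74.5 FPKM against 14.8 and 13.2 in control and 32.9 and 27.0 in PQ. Its log2 fold change was 2.38 in NAC (SE 0.11, edgeR adjusted p = 1.0e-10) and 1.07 in PQ (SE 0.11, edgeR adjusted p = 4.3e-06). Steap3 and Steap4, reductases of one family, thus stood in opposite order in PQ and NAC, with Steap4 at -1.31 for PQ against NAC (edgeR adjusted p = 4.7e-08). Within protocols, PQ exceeded control in log2 CPM by 1.24 and 1.27 for Lcn2 and by 1.10 and 1.02 for Steap4, with NucleoSpin and TRIZOL in turn. Trf, transferrin itself, fell by 0.52 in PQ (edgeR adjusted p = 0.017, lost without PQ replicate 1) and rose by 0.81 in NAC (edgeR adjusted p = 0.00022). Steap2 fell by 0.35 in PQ (edgeR adjusted p = 0.033, lost without control replicate 1 or either PQ library and with DESeq2 or limma) and by 0.47 in NAC (edgeR adjusted p = 0.0053, lost without control replicate 1 or NAC replicate 2 and with limma). Steap1 was higher in PQ than in NAC by 0.78 (edgeR adjusted p = 0.016, lost without PQ replicate 2 or either NAC library and with DESeq2), and Trf was lower there, with -1.33 (edgeR adjusted p = 8.5e-07).

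Only 2 of the 9 genes of ferroxidases and the hepcidin axis were tested. Cp, the copper ferroxidase ceruloplasmin that works beside ferroportin, had 180.8 and 165.8 FPKM in control, 261.6 and 245.2 in PQ and 306.9 and 287.6 in NAC. On the log2 scale it rose by 0.52 in PQ (edgeR adjusted p = 0.00051) and 0.75 in NAC (edgeR adjusted p = 8.7e-06), although Slc40a1 itself was at the floor. Neo1 was higher in NAC by 0.42 (edgeR adjusted p = 0.0054, lost without control replicate 1 or NAC replicate 2) and lower in PQ than in NAC, with -0.38 (edgeR adjusted p = 0.0075, lost without NAC replicate 2 or either PQ library and with the labelled protocol as a covariate, at -0.33). Hamp, which encodes hepcidin, had no value in any library. Of 8 chaperone and sensing genes tested, Glrx3 alone passed in any comparison, higher in PQ than in NAC by 0.37 (edgeR adjusted p = 0.0067, lost without PQ replicate 2 or NAC replicate 2).

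In heme breakdown and transport, 10 genes were tested, and 3 were higher in PQ against control, 3 lower in NAC against control, and 4 higher and 1 lower in PQ against NAC. Hmox1, which opens the heme ring and frees its iron, had 37.2 and 40.25 FPKM in control, 89.1 and 71.3 in PQ and 27.0 and 31.5 in NAC. It rose by 1.02 in PQ (SE 0.11, edgeR adjusted p = 7.3e-06) and fell by 0.45 in NAC (edgeR adjusted p = 0.011, lost without NAC replicate 1 and with limma), the same order of groups as Steap3. Within protocols, PQ exceeded control by 1.21 and 0.82 in log2 CPM. Slc48a1 and Slc46a1, of the same list, rose in PQ by 0.46 and 0.61 (edgeR adjusted p = 0.0084 and 0.029). Both calls were lost without PQ replicate 1 or control replicate 1. That of Slc46a1 was also lost with DESeq2 and with limma on log2(FPKM + 1). In NAC, Hebp1, a heme-binding protein, fell by 0.85 and Abcg2, a porphyrin exporter, by 0.55 (edgeR adjusted p = 0.00046 for each). Against NAC, PQ was higher for Hmox1 by 1.48, Hebp1 by 0.98 and Slc48a1 by 0.78, and lower for Blvrb, with -0.51, of which the last was lost without PQ replicate 1 or NAC replicate 1 and with the labelled protocol as a covariate (-0.44).

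Of 10 heme synthesis genes tested, Alad alone passed against control, with -0.36 in PQ (edgeR adjusted p = 0.038) and -0.41 in NAC (edgeR adjusted p = 0.020). Both were lost without control replicate 2, and 3 and 6 of 13 alternatives kept them. In mitochondrial iron import and iron-sulphur assembly, 3 of 24 genes passed for each treatment against control. Cisd3, an iron-sulphur protein of the mitochondrion, was higher in PQ by 0.68 (edgeR adjusted p = 0.0092, lost without control replicate 2 or PQ replicate 1 and with DESeq2) and lower in NAC, with -0.59 (edgeR adjusted p = 0.038, lost in 8 of 13 alternatives). Hspa9, the chaperone of cluster transfer, fell by 0.92 in NAC (edgeR adjusted p = 8.0e-05), but control replicate 1 held 550.1 FPKM and control replicate 2 held 362.6, and the fall was -0.58 without the former. Slc25a28, an iron importer, fell by 0.45 in PQ (edgeR adjusted p = 0.038, lost without control replicate 2 or PQ replicate 2 and with DESeq2 or limma). Cisd2 was higher in NAC by 0.42 (edgeR adjusted p = 0.020, lost without control replicate 2 or NAC replicate 1 and with the labelled protocol as a covariate, at 0.41).

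For PQ against NAC, 7 of these 24 genes passed. Cisd3 (1.27), Fdx2 (0.83) and Hspa9 (0.53) were on the higher side in log2 fold change, and Hscb (-0.44) and Nfs1 (-0.37) on the lower side. Fdx2 was lost without PQ replicate 1, Hspa9 without PQ replicate 2 or NAC replicate 2 and with DESeq2, and Hscb and Nfs1 without any 1 of the PQ or NAC libraries, with DESeq2 and with the labelled protocol as a covariate (-0.49 and -0.36). Cytosolic iron-sulphur assembly had 9 genes tested, with 1 call for each treatment against control and 3 for PQ against NAC. Ciapin1 was higher in PQ than in control by 0.34 (edgeR adjusted p = 0.041, kept in 3 of 13 alternatives) and Mms19 lower in NAC, with -0.43 (edgeR adjusted p = 0.0078, lost without control replicate 2 or NAC replicate 1 and with limma). Ciapin1, Ciao2b and Mms19 were higher in PQ than in NAC by 0.44, 0.35 and 0.34, and all 3 calls were lost without PQ replicate 1, that of Mms19 also without NAC replicate 1 and with limma, and that of Ciao2b without any 1 of the PQ or NAC libraries, with DESeq2 and with the labelled protocol as a covariate (0.28).

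**Figure D5:**
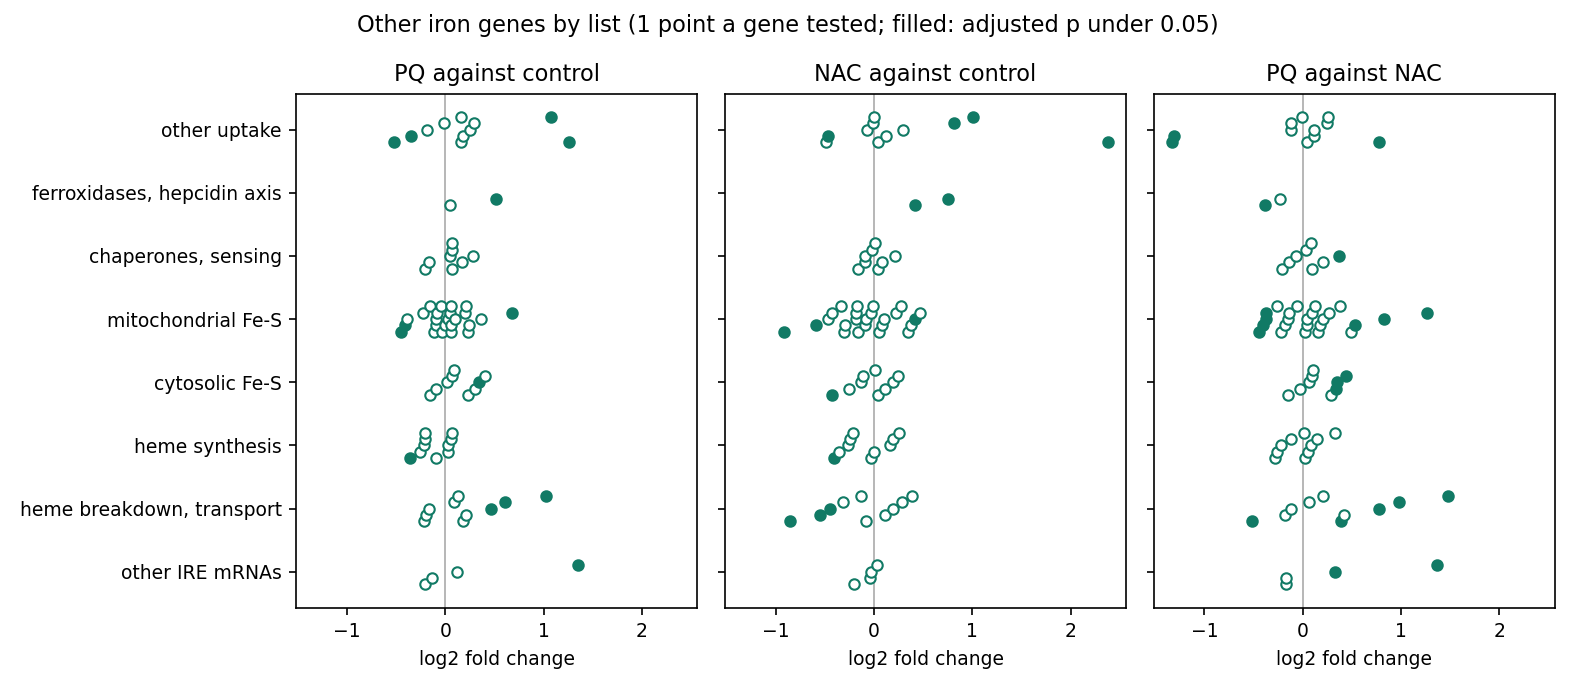
Log2 fold changes of further iron genes by list, 1 point per gene tested, for 3 comparisons; filled points have an adjusted p under 0.05. Steap4 in NAC (2.38) and Epas1 in PQ (1.35), both against control, lie farthest to the right in their panels.

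Of 5 other mRNAs known to carry an IRE, 4 were tested, and their median log2 fold change was -0.01 for PQ against control. Epas1, which encodes HIF-2α and had fractional expected counts, had 2.29 and 2.77 FPKM in control, 6.91 and 6.21 in PQ and 2.25 and 2.90 in NAC, a log2 fold change in PQ of 1.35 over control (SE 0.15, edgeR adjusted p = 8.8e-06) and 1.37 over NAC (edgeR adjusted p = 1.8e-06). Cdc42bpa did not pass in any comparison, Cdc14a was higher in PQ than in NAC by 0.33 (edgeR adjusted p = 0.032, kept in 6 of 13 alternatives), and Alas2 was at or under 3 counts. For Epas1, PQ exceeded control by 1.53 and 1.15 in log2 CPM within protocols. The pattern was not found in Epas1, Cdc14a or Cdc42bpa.

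Markers of the cell types in the culture moved with the groups as well. In PQ against control, Sox2 fell by 0.35 and Nes rose by 0.34, while in NAC Vim fell by 0.75, Sox2 by 0.31 and Nes by 0.28. The 5 astrocyte markers had summed FPKM of 8.14 and 8.47 in control, 11.2 and 10.7 in PQ and 15.6 and 16.1 in NAC, led by Slc1a2. Of these, Aqp4 (1.76), Gfap (1.23) and Slc1a2 (0.65) rose in NAC and Aldh1l1 (1.17) rose in PQ. The 6 microglial markers summed to 2.05 and 1.89 in control, 3.01 and 3.05 in PQ and 4.50 and 3.53 in NAC, mostly from P2ry12, with Aif1, Csf1r, Tmem119 and Ptprc at or under 3 counts. Olig1 and Pdgfra were higher in NAC by 0.41 and 0.40. Their part in the differences of the iron genes was not tested, and in bulk RNA fewer cells of a type and less RNA per cell cannot be told apart. Sums of the other lists stayed low: at most 1.72 FPKM for oligodendrocytes, 2.80 for neurons, 0.58 for endothelium, 0.36 for erythroid cells and 0.10 for choroid plexus. Fibroblast and pericyte markers reached 5.55, from Col3a1, which fell by 0.90 in PQ, with Pdgfrb at or under 3 counts.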

How the data were processed

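RNA-seq gene tables of 6 NSPC libraries were used. For each gene, the authors deposited FPKM beside an expected count. Per the submitters' processing notes, replicate 1 of control and of PQ used mm9, TopHat2 2.0.11 and Cufflinks 2.1.1, and the others used mm10, HISAT2 2.0.4, Bowtie2 2.2.5 and RSEM, although all 6 tables share one format. Strand use in counting is not given in the sources used here. Genes were named by NCBI identifier from the gene table of GRCm38.p6 (99.7% matched).

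Expected counts were rounded and tested with edgeR 4.0.16 in R 4.3.3 (TMM, quasi-likelihood, all 6 libraries, no covariates, mean FPKM of at least 1, Benjamini-Hochberg, threshold 0.05, two-sided). A standard error was the size of the log2 fold change over the square root of F. The tests were checked on simulated counts. Alternatives were DESeq2 1.42.0, its size factors, limma 3.58.1 on log2(FPKM + 1) and log2(FPKM + 0.1), no filter, the labelled protocol as a covariate, only the 4 libraries compared, ferritin summed with copies, and leaving out each library. IREs were located on mm9 with GENCODE vM1, and each sequence was checked against the genome. Tables were summarized in Python 3.11.15.

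Named genes were all members, in each list and comparison the genes past the threshold with at most the 3 largest rises and 3 largest falls, the 3 nearest profiles of members spanning over 0.5 in log2 CPM, Cdkn2a, and cell type markers. Members and lists were chosen with earlier results of these data known. Some genes under this rule are not reported here.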

Additional observations from a re-analysis of the deposited data

How the results depend on the processing

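For PQ against control and PQ against NAC, the rises of Tfrc, Steap3, Fth1 and Ftl1 kept their direction and passed the threshold under all 14 alternatives, as did the fall of Steap3 in NAC. Their log2 fold changes over control in PQ ranged from 0.62 to 0.92 for Tfrc, 0.56 to 0.97 for Steap3, 0.72 to 0.85 for Fth1 and 0.54 to 0.83 for Ftl1. Members called for NAC against control fell from 2 to 1 with the labelled protocol as a covariate, with only the 4 libraries compared, with DESeq2 and with either limma fit, each time through loss of Slc11a2, and ranged from 1 to 2 when a library was left out. The cause was not tested. Further iron genes called in PQ against control fell from 14 to 8 with DESeq2 and 9 with limma on log2(FPKM + 1), and ranged from 6 to 15 when a library was left out, with 10 to 14 for NAC against control and 12 to 26 for PQ against NAC. Over all genes tested, PQ against control gave 1143 higher and 1107 lower calls, and 454 and 412 without PQ replicate 1. For NAC against control, 1056 higher and 1130 lower calls became 633 and 653 without NAC replicate 1 and 669 and 758 without NAC replicate 2. For PQ against NAC, 1874 and 1834 became 1229 and 1114 without PQ replicate 1 and 1239 and 1168 without NAC replicate 1. A lone library left in a group was assumed to vary like the other groups. Alternatives for single further genes were chosen after the data were seen.

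Signs turned only for differences that did not pass. Tfrc in NAC against control was -0.07 with the labelled protocol as a covariate and ranged from -0.05 to 0.17 when a library was left out. For NAC against control, limma gave 0.03 for Ncoa4 and 0.02 for Ireb2 with either pseudocount, and Ireb2 ranged from -0.12 to 0.07 when a library was left out. For PQ against NAC, Slc11a2 ranged from -0.22 to 0.00 and Ncoa4 from -0.13 to 0.00. Departures from the group mean in control correlated at -0.08 with those in PQ for libraries sharing a labelled protocol, across 11717 genes. With 2 libraries per group and totals from 9680436 to 10698241 counts, a difference that did not pass, such as those of Ireb2 and Ncoa4, is not shown to be absent.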
